A study of Mus musculus with 46 samples.

Results

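Oligodendrocytes (OLs) are the glial cells that wrap axons of the central nervous system in myelin, a stack of membrane layers held together by a small set of abundant proteins. They arise from oligodendrocyte progenitor cells (OPCs), and as an OL matures it turns on the genes for the proteins of the sheath, for its cytoskeleton and for the lipid and iron supply that membrane growth needs. In the mouse hippocampus myelination starts after birth, so a pup of postnatal day 17 (P17) is sampled while these genes are still rising.

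The genes described here are 34 genes of mature OLs and myelin, taken by their symbols from a table of 52636 genes measured by bulk RNA-seq. Each symbol had 1 row. Of the 34, 30 reached a mean of at least 3 TPM (the share of a gene's transcripts among all transcripts, scaled to a fixed total and corrected for length) in at least 1 rearing and were tested in a fit of 13244 genes. Hapln2, Ninj2, Cldn14 and Klk6 stayed under that level. The libraries came from the left hippocampus of 46 P17 pups of the strain Balb/cByj, 1 library per pup, and no genotype other than the strain is given. Control (CTL) pups, 9 female and 6 male, were raised from birth with standard corncob bedding and a nestlet. Limited bedding (LB) pups, 9 female and 7 male, had less corncob and no nestlet over the same days. Unpredictable postnatal stress (UPS) pups, 7 female and 8 male, were raised under a further stress condition of the series whose procedure is not given in the sources used here. Which pups were littermates is not labelled, so litter is not in the model and the p-values are too small to the extent that littermates are alike.

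Some libraries need a word first. Female UPS sample 1 carries an LB entry in one label and UPS in its title and description, and was kept as UPS. Female UPS sample 2 stood apart in several genes, with the highest Anln (34.2 TPM) and the lowest Gamt (2.90 TPM), Car2 (58.6 TPM) and Efhd1 (4.65 TPM) of the 15 UPS libraries. Female CTL sample 2 had the lowest CTL value in 24 of the 30 tested genes. The header of the table gives female CTL sample 9 and female LB sample 9 earlier numbers that do not mark them as female, and both were kept as labelled. The paper's numbers of male and female RNA-seq pups in CTL and LB are those reached when both are counted as males. Their sex was not tested here. Counts and calls of the tested genes of the list that turned without female UPS samples 1 or 2 or female CTL sample 2 are given below. For the number 9 pups, values within each sex are given. Calls of other genes were not read without these libraries. TPM keeps no read depth, so the counting error of a single value is unknown.

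The 4 largest decreases in LB among the 30 genes belonged to Mal, Ermn, Mobp and Mog. The stretches just upstream of their transcription starts are shown because these genes fell together, and because SOX10 and MYRF, transcription factors that switch on myelin genes, are known to bind DNA of the kind searched for here. The bases were taken from RefSeq on GRCm38.p6, 5′ to 3′ on the strand of the gene, and end where the annotated transcript begins. For Mal the stretch is chr2:127656696-127656945 (minus strand), for Ermn chr2:58052865-58053114 (minus strand), for Mobp chr9:120149492-120149706 (plus strand) and for Mog chr17:37023399-37023648 (minus strand). Capitals mark matches on either strand to the SOX core ACAANG or to the MYRF core CTGGNAC.
Mal: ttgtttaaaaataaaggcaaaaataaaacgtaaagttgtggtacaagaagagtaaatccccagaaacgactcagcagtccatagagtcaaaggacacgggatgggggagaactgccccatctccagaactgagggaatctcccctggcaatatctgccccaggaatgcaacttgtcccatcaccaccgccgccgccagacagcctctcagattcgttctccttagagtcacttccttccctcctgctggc
Ermn: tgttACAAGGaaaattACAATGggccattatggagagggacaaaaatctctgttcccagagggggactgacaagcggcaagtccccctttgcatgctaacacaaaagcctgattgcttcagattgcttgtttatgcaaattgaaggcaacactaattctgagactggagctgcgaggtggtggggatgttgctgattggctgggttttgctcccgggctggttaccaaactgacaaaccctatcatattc
Mobp: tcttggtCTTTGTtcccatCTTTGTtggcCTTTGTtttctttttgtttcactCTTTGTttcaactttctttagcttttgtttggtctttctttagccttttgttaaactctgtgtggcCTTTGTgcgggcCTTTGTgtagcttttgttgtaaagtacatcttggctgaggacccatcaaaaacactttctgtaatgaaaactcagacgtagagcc
Mog: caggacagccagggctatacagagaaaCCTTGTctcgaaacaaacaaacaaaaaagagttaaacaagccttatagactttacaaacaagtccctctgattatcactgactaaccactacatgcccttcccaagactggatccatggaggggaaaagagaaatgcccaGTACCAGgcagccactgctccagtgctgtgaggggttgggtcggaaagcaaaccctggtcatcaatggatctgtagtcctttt

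Ermn had 2 matches to the SOX core, Mobp had 6 and Mog had 1, whereas Mal had none. The one match to the MYRF core among these 4 genes began 83 bases before the start of Mog. RefSeq promoters matched 27 of the 34 genes, with 36 windows of 250 bases. The SOX core was found in 20 of the 36 windows (55.6%) and in 36.3% of 32851 windows of all genes. For the MYRF core the numbers were 12 of 36 (33.3%) and 16.1%. The 2 motifs do not contain each other. A match of so few letters is a description of the sequence and not a binding site.

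Most of these genes were lower in LB. Of the 30 tested, 22 were lower in LB than in CTL and none was higher at an adjusted p under 0.05 (limma, Benjamini-Hochberg over all tested genes, 27 at an unadjusted p under 0.05), where 2.76% of all 13244 genes were lower and 2.53% higher. Counts at an unadjusted p, here and below, are given without the share of all tested genes at that cut. The median log2 fold change was -0.64 for the 30 genes and 0.01 for all tested genes. Measured by the means, LB pups held 40.0% of the CTL level for Mal and 96.4% for Qdpr, with a median over the 30 genes of 61.9%. In UPS, 19 of the 30 were lower and none was higher (limma, 24 at an unadjusted p under 0.05), where 5.52% of all tested genes were lower and 6.91% higher. Their median log2 fold change was -0.50, against 0.00 for all tested genes, and the means lay between 52.8% of CTL for Mal and 105% for Anln, with a median of 71.9%. In whole tissue, fewer OLs and less of these RNAs in each OL cannot be told apart. Both comparisons use the same 15 CTL libraries, so they are not independent of each other. With female UPS sample 2 left out, 25 genes were lower in LB and 17 in UPS. Without female CTL sample 2 the numbers were 24 and 23, and without female UPS sample 1 they were 23 and 18. The UPS count was 7 of all 34 with no filter on low TPM, 8 of the 30 with rearing alone in the model and 10 with a trend with GC content removed (an alternative chosen after the data were seen), whereas the LB count stayed between 22 and 23 in these fits.

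The 12 tested genes of the sheath itself all fell in LB, with log2 fold changes between -1.60 and -0.48, and 9 of the 12 fell in UPS. Mbp encodes myelin basic protein, which holds the inner faces of the compacted membrane together and is needed to form compact myelin. It was the most abundant of the 34 genes, with 841 ± 215 TPM (SD, n = 15) in CTL, 485 ± 160 TPM (SD, n = 16) in LB and 597 ± 196 TPM (SD, n = 15) in UPS. Its CTL libraries spanned 422 to 1335 TPM (median 820), its LB libraries 188 to 797 TPM (median 463) and its UPS libraries 329 to 1025 TPM (median 607). The groups overlapped, with 4 LB and 3 UPS libraries below the lowest CTL library. On the log2 scale of TPM + 1, which is the scale of every fold change here, Mbp fell by 0.85 in LB (standard error 0.17, adjusted p = 0.0024 from limma) and by 0.54 in UPS (standard error 0.17, adjusted p = 0.035 from limma). Libraries below CTL numbered 15 of 16 in LB and 14 of 15 in UPS, counted against the CTL mean of the same sex, as are all such counts below.

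**Figure D1:**
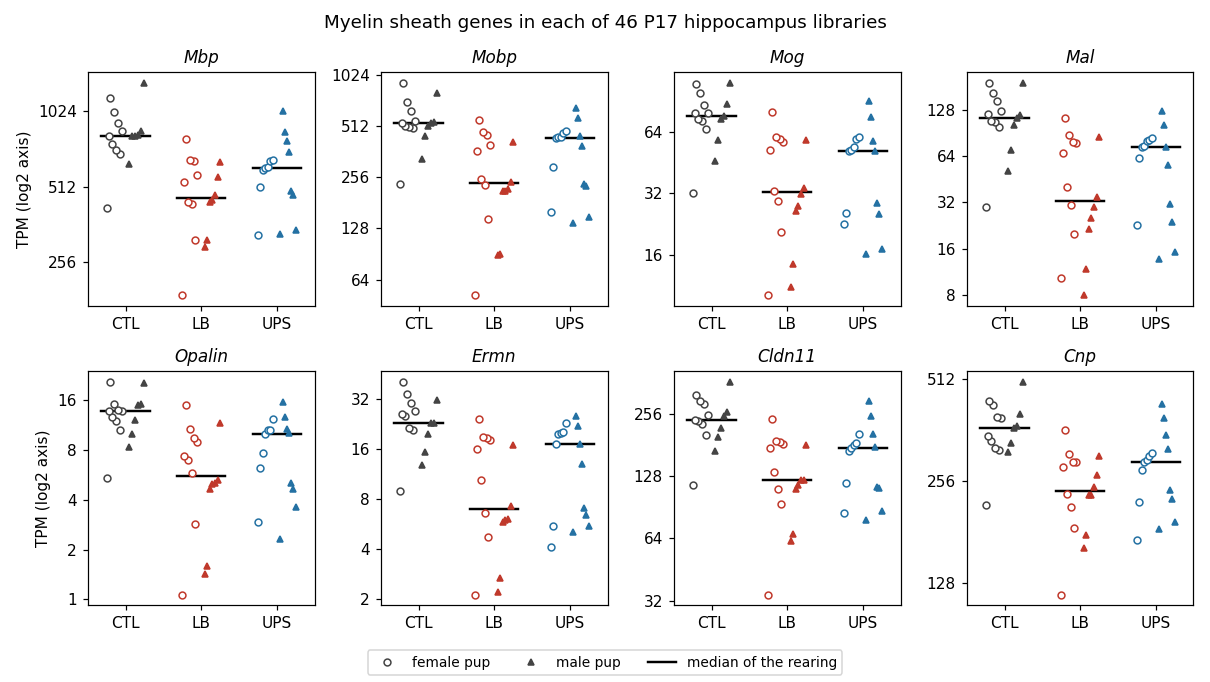
TPM on log2 axes of 8 sheath genes in the CTL, LB and UPS libraries, each point 1 library (open circles female, filled triangles male) and each bar the median of the rearing. In each panel the LB median is the lowest, the UPS median lies between, and the groups overlap; for Mal the medians are 114 TPM in CTL, 32.8 TPM in LB and 73.0 TPM in UPS.

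Mal, a small proteolipid that sorts membrane cargo to myelin, had the largest decrease in LB of all 13244 tested genes. Its values ran from 29.9 to 193 TPM in CTL (median 114), from 7.91 to 113 TPM in LB (median 32.8) and from 13.7 to 126 TPM in UPS (median 73.0). All 16 LB libraries lay below the CTL median, and 6 of them below the lowest CTL library. The log2 fold change was -1.60 in LB (95% interval -2.27 to -0.94, adjusted p = 0.0031 from limma) and -1.01 in UPS (-1.69 to -0.33, adjusted p = 0.041 from limma). The UPS call was lost in 13 of 46 fits with 1 library left out, where the adjusted p from limma reached 0.076 without male CTL sample 3.

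Ermn, which encodes the actin-binding protein ermin of late OLs, ranged from 8.99 to 40.8 TPM in CTL, with a median of 22.9. In LB it lay between 2.12 and 24.2 TPM with a median of 6.92, and 9 of 16 libraries were below every CTL library. In UPS it lay between 4.09 and 25.2 TPM with a median of 17.1, so UPS spanned almost the LB range with a higher middle. Ermn fell by 1.38 in LB (standard error 0.28) on the log2 scale, in 16 of 16 libraries, with an adjusted p of 0.0031 from limma. In UPS it fell by 0.83 (standard error 0.29) in 13 of 15 libraries, with an adjusted p of 0.049 from limma, a call that was lost in 26 of the 46 fits with 1 library left out. Without female UPS sample 2 the UPS value was -0.71 (adjusted p = 0.078 from limma).

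Mobp encodes a basic protein of compact myelin and was the second most abundant gene of the list in CTL. It spanned 233 to 923 TPM in CTL (median 530), 51.7 to 559 TPM in LB (median 236) and 138 to 651 TPM in UPS (median 435). The groups overlapped, and 8 of 16 LB libraries lay under the lowest CTL value. Its log2 fold change was -1.21 in LB (standard error 0.27, adjusted p = 0.0051 from limma), whereas -0.65 in UPS did not pass (standard error 0.27, adjusted p = 0.11 from limma).

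Mog is a glycoprotein of the outermost myelin surface and a late marker of OL maturation. CTL libraries held 32.1 to 112 TPM (median 76.4), LB libraries 10.1 to 80.0 TPM (median 32.4) and UPS libraries 16.2 to 90.9 TPM (median 51.9). Again the 3 groups overlapped, and 8 LB and 6 UPS libraries were below the lowest CTL library. Mog fell by 1.20 in LB (adjusted p = 0.0039 from limma) and by 0.84 in UPS (adjusted p = 0.028 from limma) on the log2 scale.

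Opalin, a transmembrane glycoprotein of mature OLs, had 5.39 to 20.6 TPM in CTL (median 13.7), 1.07 to 14.9 TPM in LB (median 5.53) and 2.33 to 15.5 TPM in UPS (median 10.01). Its log2 fold change was -1.14 in LB (adjusted p = 0.0049 from limma) and -0.70 in UPS, which did not pass (adjusted p = 0.059 from limma). Mag, an adhesion molecule at the inner face of the sheath that touches the axon, showed the same kind of split call. It lay between 92.4 and 320 TPM in CTL (median 202), between 32.3 and 210 TPM in LB (median 105) and between 59.6 and 248 TPM in UPS (median 139). Mag fell by 0.96 in LB (adjusted p = 0.0064 from limma), and its UPS value of -0.63 had an adjusted p of 0.054 from limma. Both UPS values were close to the threshold, and Mag passed it in 11 and Opalin in 6 of the 46 fits with 1 library left out, both of them without female CTL sample 2 (adjusted p = 0.030 and 0.036 from limma).

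Cldn11 forms the tight junctions between the layers of central myelin. Its level ran from 116 to 368 TPM in CTL (median 240), from 34.2 to 242 TPM in LB (median 123) and from 78.4 to 295 TPM in UPS (median 176). It fell by 0.98 in LB (adjusted p = 0.0039 from limma) and by 0.64 in UPS (adjusted p = 0.042 from limma). The UPS call of Cldn11 was lost in 14 of the 46 fits with 1 library left out, where the adjusted p from limma reached 0.079 without male CTL sample 3. Female UPS sample 2 was among these libraries (-0.60, adjusted p = 0.051 from limma). Cnp, a phosphodiesterase of the uncompacted channels of myelin that appears early in OL differentiation, changed less. Cnp spanned 217 to 503 TPM in CTL (median 368), 119 to 364 TPM in LB (median 241) and 172 to 432 TPM in UPS (median 292). It fell by 0.62 in LB (adjusted p = 0.0037 from limma) and by 0.42 in UPS (adjusted p = 0.033 from limma), and all 16 LB libraries lay below the CTL median.

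Tmem88b, a membrane protein for which no role is given here, had 16.3 to 43.2 TPM in CTL (median 30.2), 4.78 to 30.7 TPM in LB (median 15.4) and 9.89 to 35.5 TPM in UPS (median 21.0). In 10 of the 16 LB libraries it was below every CTL library, and it fell by 0.95 in LB and by 0.70 in UPS (adjusted p = 0.0026 and 0.016 from limma). Tspan2, a tetraspanin of myelin, lay between 72.7 and 158 TPM in CTL (median 109), between 39.3 and 125 TPM in LB (median 66.0) and between 26.6 and 122 TPM in UPS (median 88.5). Its lowest value in any library was the 26.6 TPM of female UPS sample 5, and it fell by 0.66 in LB and by 0.50 in UPS (adjusted p = 0.015 and 0.048 from limma). The UPS call of Tspan2 was lost in 26 of the 46 fits with 1 library left out, where the adjusted p from limma reached 0.094 without male CTL sample 3. Pllp, the proteolipid plasmolipin, had the smallest decrease of the sheath genes in both comparisons and narrow groups. It held 39.1 to 87.4 TPM in CTL (median 54.4), 27.0 to 53.1 TPM in LB (median 41.2) and 32.4 to 54.9 TPM in UPS (median 44.2). Pllp fell by 0.48 in LB (standard error 0.09, adjusted p = 0.0016 from limma) and by 0.38 in UPS (standard error 0.09, adjusted p = 0.0074 from limma). All 15 UPS libraries and 15 of 16 LB libraries lay below CTL.

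**Figure D2:**
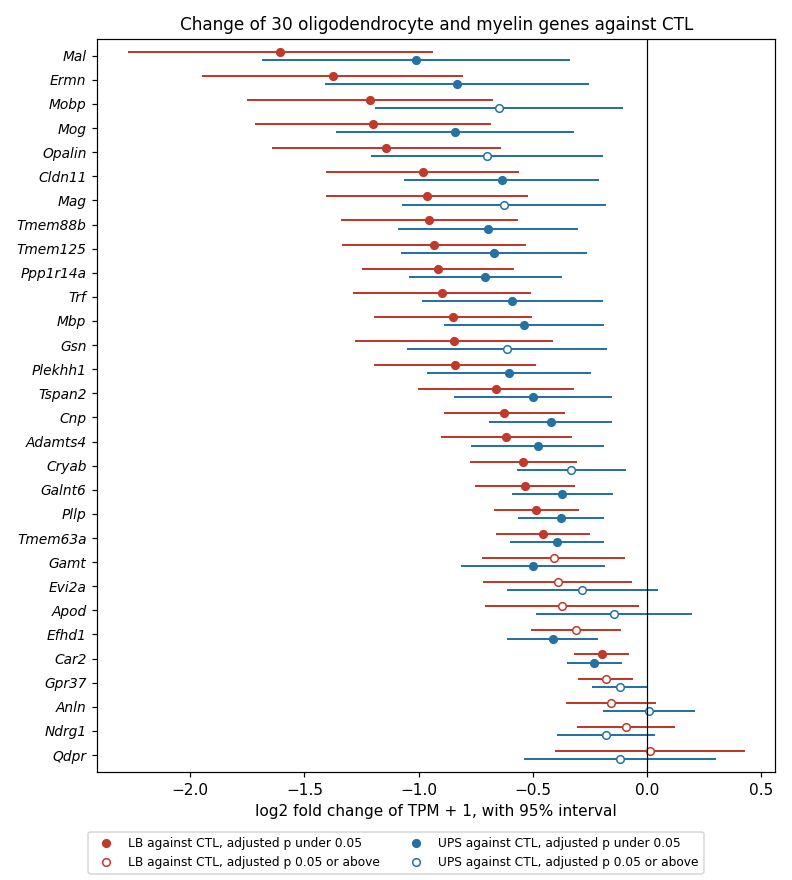
Log2 fold change of TPM + 1 with its 95% interval for each of the 30 tested genes in LB (red) and UPS (blue) against CTL, ordered by the LB change; filled points passed an adjusted p of 0.05. The values run from -1.60 for Mal to 0.01 for Qdpr in LB, and from -1.01 for Mal to 0.01 for Anln in UPS.

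Of 9 tested genes of the OL membrane, signalling and cytoskeleton, 5 fell in LB and 4 in UPS. Ppp1r14a encodes an inhibitor of myosin phosphatase, which bears on the actin and myosin of the growing process. It was at 10.7 ± 2.88 TPM (SD, n = 15) in CTL, 5.49 ± 2.31 TPM (SD, n = 16) in LB and 6.41 ± 2.44 TPM (SD, n = 15) in UPS. Ppp1r14a had the smallest adjusted p of the list in both comparisons (0.0011 in LB and 0.0050 in UPS, limma), and changes of -0.91 and -0.71 on the log2 scale. Gsn, the actin-severing protein gelsolin, lay between 33.9 and 150 TPM in CTL (median 84.2), between 22.8 and 83.8 TPM in LB (median 47.6) and between 23.0 and 117 TPM in UPS (median 59.8). All 16 LB libraries were under the CTL median. Gsn fell by 0.84 in LB (adjusted p = 0.013 from limma), and its UPS change of -0.61 did not pass (adjusted p = 0.054 from limma, 0.026 without female CTL sample 2).

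Plekhh1 and Tmem125, a pleckstrin homology domain protein and a membrane protein whose roles are not given here, were low in all rearings and had changes as large as those of several sheath genes. Plekhh1 was at 8.05 TPM in CTL, 4.31 TPM in LB and 5.20 TPM in UPS on average. Its log2 fold changes were -0.84 and -0.60 (adjusted p = 0.0034 and 0.022 from limma). Tmem125 averaged 7.64 TPM in CTL, 3.82 TPM in LB and 4.75 TPM in UPS, with log2 fold changes of -0.93 and -0.67 (adjusted p = 0.0041 and 0.025 from limma). Tmem63a, a mechanically gated ion channel, averaged 11.4, 8.08 and 8.44 TPM in the same order. It fell by 0.45 and by 0.39 (adjusted p = 0.0058 and 0.010 from limma).

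The other 4 genes of this group passed neither test. Gpr37, an orphan receptor that in mice holds back OL differentiation, lay between 24.9 and 41.2 TPM in CTL (median 33.3), between 23.2 and 35.0 TPM in LB (median 29.3) and between 25.1 and 39.4 TPM in UPS (median 29.6). Its log2 fold changes of -0.18 and -0.12 had adjusted p-values of 0.066 and 0.20 from limma. Without female UPS sample 2 the LB value passed, with an adjusted p from limma of 0.039, as it did without female CTL sample 2 (0.042). Evi2a, a membrane protein encoded within an intron of Nf1, averaged 7.72 TPM in CTL, 5.61 TPM in LB and 6.10 TPM in UPS, and its log2 fold changes were -0.39 and -0.28 (adjusted p = 0.16 and 0.25 from limma).

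Anln, the actin and septin scaffold anillin, had narrow groups, with 8.35 to 14.3 TPM in CTL (median 10.6), 7.93 to 11.1 TPM in LB (median 9.56) and, apart from female UPS sample 2, similar values in UPS (lowest 7.73, median 9.64). Its log2 fold changes were -0.16 in LB and 0.01 in UPS (adjusted p = 0.39 and 0.96 from limma), and the UPS value was -0.10 without that library. Ndrg1, a stress-regulated cytoplasmic protein of myelinating glia whose loss in humans causes a demyelinating neuropathy, lay between 21.8 and 37.7 TPM in CTL (median 29.3) and between 20.3 and 35.4 TPM in LB (median 26.8). UPS libraries held 11.3 to 34.2 TPM (median 28.0), and only the males 6 and 7 were below every CTL library. Its log2 fold changes were -0.09 and -0.18 (adjusted p = 0.68 and 0.27 from limma).

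Among the secreted products of OLs, Trf and Adamts4 fell in both rearings. Trf encodes transferrin, the iron carrier that OLs make for themselves and their neighbours. It averaged 59.0 ± 17.9 TPM (SD, n = 15) in CTL, 32.8 ± 14.2 TPM (SD, n = 16) in LB and 39.1 ± 14.0 TPM (SD, n = 15) in UPS. The log2 fold changes were -0.90 and -0.59 (adjusted p = 0.0043 and 0.041 from limma), and the UPS call was lost in 16 of the 46 fits with 1 library left out, female UPS sample 1 among them (adjusted p = 0.052 from limma). Adamts4, a protease of extracellular proteoglycans, averaged 19.3 TPM in CTL, 12.8 TPM in LB and 14.2 TPM in UPS, with log2 fold changes of -0.62 and -0.48 (adjusted p = 0.0071 and 0.025 from limma). Apod, a lipocalin that carries small lipids, varied widely within CTL (9.70 to 43.2 TPM), and -0.37 in LB and -0.14 in UPS did not pass (adjusted p = 0.20 and 0.61 from limma).

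Of 6 enzymes, chaperones and calcium-binding proteins, 3 fell in LB and 4 in UPS, and in 4 of the 6 the UPS value was below that of LB. Galnt6, which starts O-linked sugar chains, averaged 3.03 TPM in CTL, 1.76 TPM in LB and 2.10 TPM in UPS, with log2 fold changes of -0.53 and -0.37 (adjusted p = 0.0027 and 0.023 from limma). Cryab, a small heat shock protein, spanned 27.6 to 71.0 TPM in CTL (median 46.5), 19.4 to 43.4 TPM in LB (median 27.6) and 24.0 to 47.6 TPM in UPS (median 36.2). It fell by 0.54 in LB in 16 of 16 libraries (adjusted p = 0.0043 from limma), and its UPS change of -0.33 did not pass (adjusted p = 0.056 from limma, 0.026 without female CTL sample 2).

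Efhd1 and Gamt passed in UPS and not in LB. Efhd1, a mitochondrial calcium-binding protein, lay between 12.3 and 21.1 TPM in CTL (median 15.1), between 9.44 and 16.5 TPM in LB (median 12.2) and between 4.65 and 17.3 TPM in UPS (median 12.1). Its log2 fold change was -0.31 in LB (adjusted p = 0.0502 from limma) and -0.41 in UPS (adjusted p = 0.0055 from limma). Without female UPS sample 2 the LB value passed as well, with adjusted p-values of 0.0089 in LB and 0.0055 in UPS from limma, and it also passed in LB without female CTL sample 2 (0.035) or female UPS sample 1 (0.046). Gamt, which makes creatine from guanidinoacetate, held 18.0 to 38.4 TPM in CTL (median 28.0), 13.5 to 28.4 TPM in LB (median 21.9) and 2.90 to 33.0 TPM in UPS (median 22.0). The log2 fold changes were -0.41 in LB (adjusted p = 0.11 from limma) and -0.50 in UPS (adjusted p = 0.031 from limma). Without female UPS sample 2 they were -0.41 and -0.32, and both passed (adjusted p = 0.0043 and 0.019 from limma). Without that library, then, each of the 2 genes passed in both rearings.

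Car2, the cytosolic carbonic anhydrase of OLs, varied least of the 30 genes among CTL libraries. It lay between 113 and 137 TPM in CTL (median 119), between 92.0 and 123 TPM in LB (median 107) and between 58.6 and 120 TPM in UPS (median 106). Small as the changes were, 13 LB and 11 UPS libraries were below every CTL library. Car2 fell by 0.20 in LB and by 0.23 in UPS (adjusted p = 0.037 and 0.0094 from limma). The LB call was lost in 15 of the 46 fits with 1 library left out, and no other gene called in LB missed the threshold in a fit in which it was tested.

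Qdpr, which regenerates the cofactor of aromatic amino acid hydroxylases, had a pattern of its own. Its 46 values fell into 23 between 41.4 and 70.6 TPM and 23 between 106 and 156 TPM, with none between 70.6 and 106 TPM. The lower values were held by 8 of 15 CTL, 7 of 16 LB and 8 of 15 UPS libraries, and by 11 of 25 female and 12 of 21 male libraries. Medians of 70.6 TPM in CTL, 106 TPM in LB and 61.1 TPM in UPS therefore only show on which side of the gap the middle library fell. The log2 fold changes were 0.01 in LB (95% interval -0.40 to 0.43) and -0.12 in UPS (95% interval -0.54 to 0.30), with adjusted p-values of 0.98 and 0.75 from limma. Qdpr lies at chr5:45434021-45450236 on the minus strand of GRCm38.

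**Figure D3:**
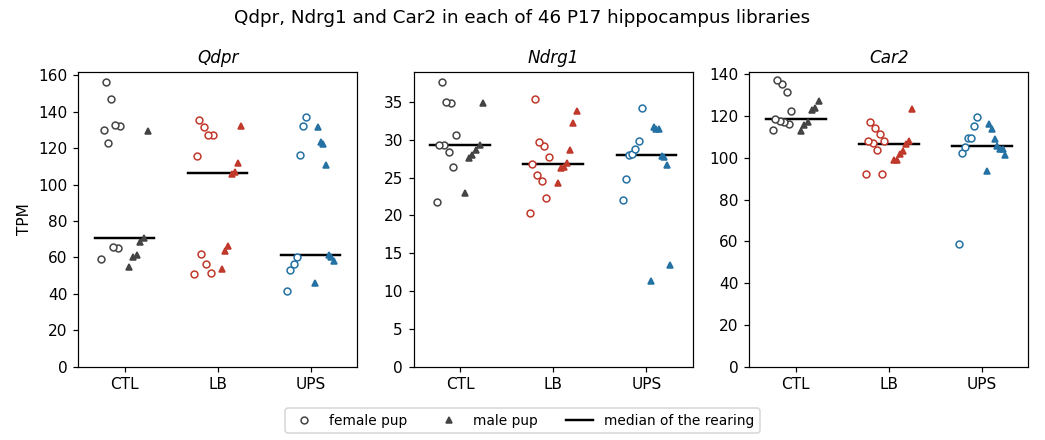
TPM of Qdpr, Ndrg1 and Car2 in each library (open circles female, filled triangles male, bars the median of the rearing; axes start at 0). Over all rearings Qdpr falls into 23 libraries at or below 70.6 TPM and 23 at or above 106 TPM, with libraries of every rearing on both sides. Ndrg1 has 2 low UPS males, and Car2 shifts by little with female UPS sample 2 at 58.6 TPM.

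The 4 genes under 3 TPM were fitted with all other genes that had a TPM above 0 in any library, and fold changes at such levels are understated. Hapln2, a link protein of the matrix at nodes of Ranvier, had 0.733 to 3.05 TPM in CTL (median 1.74), 0.160 to 1.42 TPM in LB (median 0.614) and 0.427 to 1.84 TPM in UPS (median 1.27). It fell by 0.71 in LB (adjusted p = 0.0018 from limma), and -0.39 in UPS did not pass (adjusted p = 0.056 from limma). Cldn14, a claudin, averaged 2.76 TPM in CTL, 1.51 TPM in LB and 1.42 TPM in UPS, and it fell by 0.63 and by 0.74 (adjusted p = 0.025 and 0.0057 from limma). The adhesion protein Ninj2 (means 1.45, 0.99 and 1.12 TPM) and the secreted protease Klk6 (means 0.31, 0.10 and 0.12 TPM) passed neither test in that fit.

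UPS was then compared with LB directly, to see which genes fell less in UPS. The difference was above 0 for 25 of the 30 genes, with a median of 0.21 on the log2 scale, and for 12 of the 12 sheath genes, with a median of 0.34. Over all tested genes the median was -0.01. In the means the order LB below UPS below CTL held for 25 of the 30. The share of all tested genes above 0 is not given. Most of the 30 genes differed together between pups, so these counts are not of independent genes. The median difference of the 30 genes was 0.16 without LB female 9 and 0.26 without UPS male 3. None of the 30 genes passed the test of the difference (limma, 0.143% of all tested genes higher and 0.0378% lower in UPS), 1 had an unadjusted p under 0.05, and 29 of the 30 intervals held 0. A smaller decrease in UPS was therefore not shown for any single gene. For Ndrg1, which did not pass in LB, the interval leaves room for a difference as large as the LB change itself. For the genes that fell in LB and whose intervals are printed below, the upper end stayed short of the size of that change.

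The largest differences between UPS and LB belonged to sheath genes. For Mal the difference was 0.59 (95% interval -0.07 to 1.26, adjusted p = 0.40 from limma). For Mobp it was 0.57 (0.03 to 1.10, adjusted p = 0.31 from limma), the only interval of the 30 that left out 0. Ermn followed with 0.55 (-0.02 to 1.11) and Opalin with 0.44 (-0.06 to 0.94). In each of these 4 genes the UPS median lay between those of LB and CTL.

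For Mbp, the difference was 0.31 (-0.03 to 0.65, adjusted p = 0.38 from limma), and for Cryab 0.21 (-0.02 to 0.44, adjusted p = 0.40 from limma). The 5 genes with UPS below LB were Qdpr (-0.13, interval -0.54 to 0.28), Efhd1 (-0.10, -0.30 to 0.09), Gamt (-0.09, -0.40 to 0.22), Ndrg1 (-0.09, -0.30 to 0.12) and Car2 (-0.03, -0.15 to 0.09). Car2 was the one gene among the 22 that fell in LB whose UPS value was the lower of the pair. Without female UPS sample 2 the differences of Gamt and Car2 turned to 0.09 and 0.03. Mobp, Mag, Opalin, Gsn and Cryab passed in LB and not in UPS, and the test of the difference was not past the threshold for any of these 5.

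**Figure D4:**
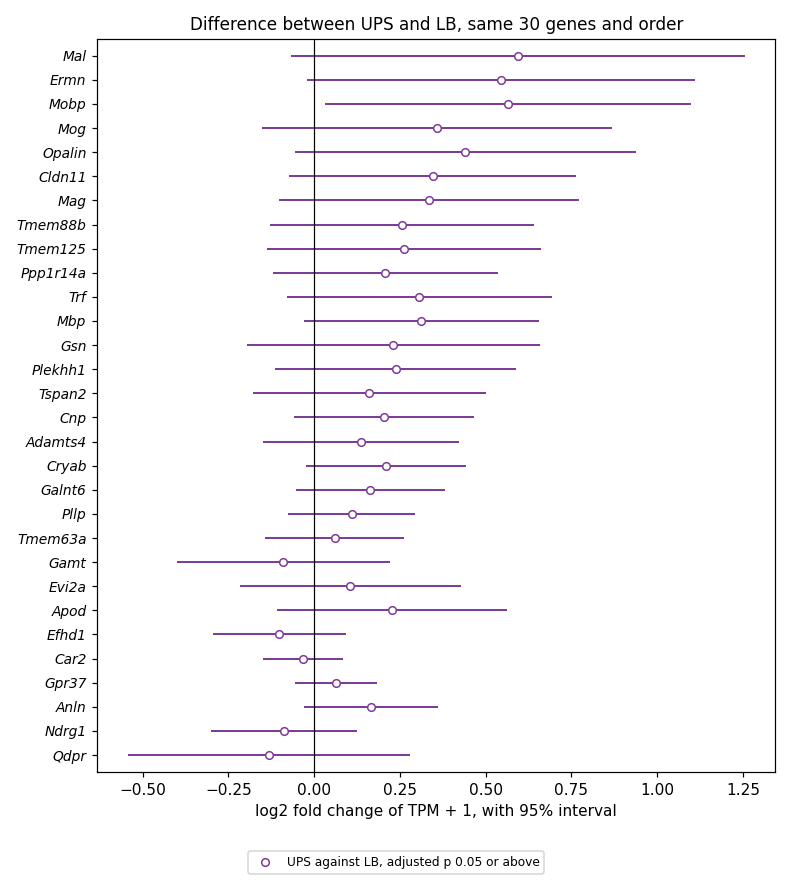
Difference between UPS and LB in log2(TPM + 1) with its 95% interval for the 30 tested genes, in the order of the LB change; a value above 0 means higher in UPS. The points lie between -0.13 for Qdpr and 0.59 for Mal, 25 are above 0, and the interval of Mobp alone leaves out 0.

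The pups of 1 rearing differed widely, and most of the genes differed together. The median over the 30 genes of the difference from the CTL mean of the same sex gives 1 value per library. In CTL it lay between -0.82 (female 2) and 0.49 (male 3) on the log2 scale. In LB it ran from -1.42 (female 9) to 0.04 (female 5), and in UPS from -1.23 (male 3) to 0.20 (male 1). LB female 9 had the lowest LB value in 19 of the 30 genes and LB female 5 the highest in 22, while UPS male 1 was the highest UPS library in 19. In CTL, male 3 was highest in 14 genes and female 6 in 10.

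The groups overlapped in each of the 34 genes in both comparisons. The spread within a rearing, as the SD of log2(TPM + 1) around the means of the sexes, had a median over the 30 genes of 0.38 in CTL, 0.48 in LB and 0.53 in UPS. It was wider in LB than in CTL for 20 of the 30 genes and for 60.1% of all tested genes. In UPS it was wider for 26 of the 30 and for 72.1% of all tested genes. Mal had SDs of 0.72, 1.09 and 0.98 in CTL, LB and UPS and Mobp 0.49, 0.96 and 0.74, whereas Pllp had 0.28, 0.26 and 0.24.

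**Figure D5:**
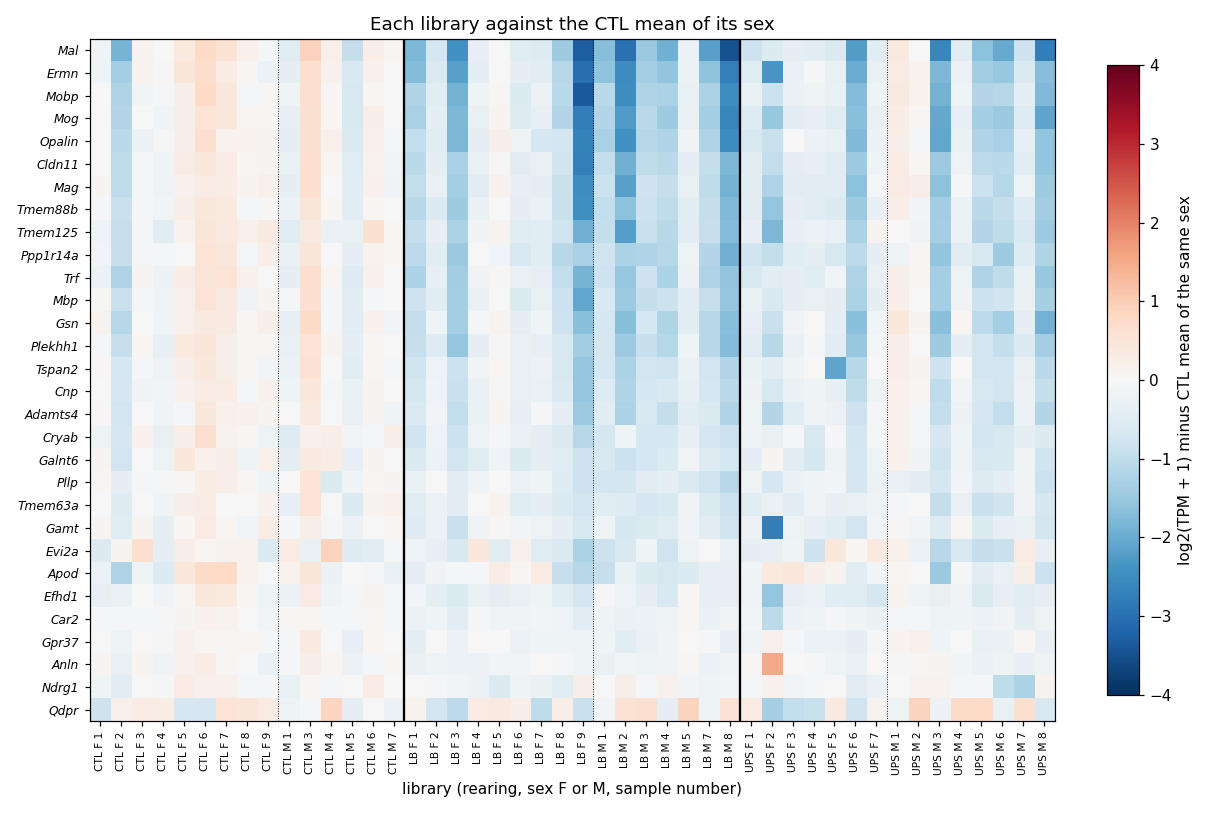
Each tested gene (rows, by LB change) in each library (columns, by rearing and sex) as the difference of log2(TPM + 1) from the CTL mean of the same sex, blue lower and red higher. Whole columns shift together, such as CTL female 2, LB female 9, UPS male 3 and UPS male 8. Qdpr varies within every rearing without following them.

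The rearing effect was also taken within each sex. Over the 30 genes the median log2 fold change in LB was -0.52 in females, with 30 of 30 below 0, and -0.80 in males, with 29 of 30 below 0. In UPS it was -0.51 in females and -0.49 in males. Mal had -1.22 in females and -1.99 in males in LB, and -0.78 and -1.24 in UPS. With all libraries and the sexes as labelled, no gene of the list passed in LB within 1 sex. There limma called 0.0302% of all genes in females and 0% in males. Of the 30, 23 in females and 22 in males had an unadjusted p under 0.05, a cut for which no share of all genes is given. In females, Car2 passed without female UPS sample 2 (-0.22, adjusted p = 0.044 from limma, 0.144% of all genes). Galnt6 passed there without female CTL sample 2 (-0.58, adjusted p = 0.047 from limma, 0.279% of all genes). In UPS, Car2 (-0.29, adjusted p = 0.040) and Efhd1 (-0.54, adjusted p = 0.022) passed in females in limma, beside 3.49% of all genes, and none passed in males, beside 0.00755%, with 18 at an unadjusted p under 0.05. Both calls were lost without female UPS sample 2, where Car2 had -0.16 and Efhd1 -0.38 in females (adjusted p = 0.088 and 0.059 from limma). Gamt passed in UPS females without female UPS sample 1 (-0.76, adjusted p = 0.044 from limma) and without female CTL sample 2 (-0.75, adjusted p = 0.039 from limma). Ppp1r14a passed there without female CTL sample 2 (-0.78, adjusted p = 0.034 from limma). In these 2 fits limma called 3.81% and 4.92% of all genes. The LB change was more negative in males for 25 of the 30 genes, with a median male minus female difference of -0.29. The share of all tested genes on that side is not given. The median LB change of all tested genes was -0.0023 in females and 0.012 in males. Most of the 30 genes differed together between pups, so the 25 are not independent of each other. None of the 30 passed the test of the difference between the sexes in any of the 3 comparisons (limma, 0% of all tested genes). The 1 gene with an unadjusted p under 0.05 in limma was Pllp in LB, with -0.29 in females, -0.68 in males and a difference of -0.39 (interval -0.76 to -0.02, adjusted p = 1.00).

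The values within each sex in LB depend on the number 9 pups, of which LB female 9 had the lowest LB value in most genes. With both left out the median LB change was -0.43 in females and -0.81 in males over 29 tested genes, and none of these passed within 1 sex (limma, 16 and 22 at an unadjusted p under 0.05). With both counted as males the medians were -0.43 and -0.89, and 21 of the 30 genes passed within males (limma, 2.5% of all tested genes), whereas none passed the test of the difference between the sexes in LB (6 at an unadjusted p under 0.05). Counting both as males gives the numbers of males and females that the paper reports for CTL and LB. Leaving these pups out and counting them as males within each sex were chosen after the data were seen.

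Other genes of the OL lineage were read from lists that hold none of the 34. Beside the calls against CTL in these lists, and in the markers of other cells below, stand the shares of all tested genes. In LB 2.76% were lower and 2.53% higher, and in UPS 5.52% and 6.91%. Of 23 tested further genes of myelin and OLs, 16 fell in LB and 12 in UPS and none rose, with median log2 fold changes of -0.39 and -0.34. Nkx6-2, a homeodomain factor of maturing OLs, had -1.23 in LB and -0.84 in UPS, and the connexin Gjb1, which forms gap junctions of OLs, had -1.04 in LB (adjusted p between 0.0011 and 0.0039 for these LB values, limma). Of 9 lineage transcription factors, 3 fell in LB and 4 in UPS. Myrf, which drives the myelin genes in maturing OLs, had -0.48 in LB and -0.29 in UPS (adjusted p = 0.0017 and 0.033 from limma). Sox10 had -0.23 and -0.22 (adjusted p = 0.028 and 0.025 from limma), Olig1 -0.29 and -0.33 (adjusted p = 0.0081 and 0.0026 from limma), and Olig2 fell by 0.28 in UPS (adjusted p = 0.032 from limma).

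Earlier stages of the lineage moved little. Of 12 genes of newly formed OLs, Neu4 fell by 0.22 in LB and Rras2 rose by 0.24 in LB and by 0.25 in UPS, and Fyn rose by 0.11 in UPS, with list medians of -0.04 in both comparisons. Of 10 OPC genes, Gpr37l1 fell by 0.26 in LB and by 0.32 in UPS and Ptprz1 rose by 0.20 in UPS, and the list medians were 0.03 and 0.03. These were the only calls of the 2 lists (limma, adjusted p under 0.05). The summed OPC level was 950 to 1097 TPM in CTL, 921 to 1157 TPM in LB and 666 to 1126 TPM in UPS.

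Markers of other cells were read beside these results, and their part in them was not tested. Of 8 astrocyte markers, Aldoc fell by 0.21 in LB and by 0.15 in UPS. Of 8 neuron markers, Camk2a fell by 0.11 in LB and Nefl rose by 0.08 in UPS, and the summed level of 6846 to 8028 TPM over all libraries is that of a neuronal tissue. None of 8 microglia, 8 meningeal and 4 choroid plexus markers passed against CTL, and of 8 endothelial markers Flt1 rose by 0.20 in UPS. Of 5 blood genes none passed in LB, and Hbb-bs, Hba-a1 and Hba-a2 rose by 0.39 to 0.48 in UPS, where the summed level was 272 to 823 TPM against 236 to 416 TPM in CTL. Summed markers of Schwann cells, which make the myelin of nerves outside the brain, stayed between 2.62 and 7.18 TPM, and the 1 of them that was tested did not pass. None of 5 thalamus markers passed against CTL, and Rora, one of them, was higher in UPS than in LB by 0.21. Choroid plexus markers varied most, with sums of 10.9 to 678 TPM in CTL, 8.90 to 2596 TPM in LB and 16.0 to 1419 TPM in UPS. No marker was at 0 in all libraries. Between 21150 and 24707 genes were above 0 in a library, and mitochondrial transcripts took 9.89% to 14.2% of the TPM in CTL, 9.52% to 13.6% in LB and 10.1% to 14.1% in UPS.

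The calls for LB and UPS differed in how firmly they held. In LB, 20 of the 22 calls were kept in each of 46 fits with 1 library left out, Car2 and Galnt6 being the others. In UPS this held for 8 of 19: Adamts4, Car2, Efhd1, Plekhh1, Pllp, Ppp1r14a, Tmem63a and Tmem88b. Galnt6, which is close to 3 TPM in CTL, was tested in 40 of the 46 fits and kept both calls in those 40. The UPS count dropped to 9 without CTL male 3, to 11 without CTL male 6, UPS male 3 or UPS male 8, and to 12 without CTL female 6, CTL female 7, CTL male 7 or UPS female 6. Some genes overlap others on the genome, and whether the counting used strand is not given in the sources used here. Opposite strands are shared by Cnp with Dnajc7, Ermn with Galnt5, Tspan2 with Tshb, Plekhh1 with Pigh, Evi2a with Nf1 and Cryab with Hspb2. Evi2a with Evi2 and Trf with Gm20425 overlap on the same strand, so the levels of these pairs are uncertain to that extent.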

How the data were processed

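Libraries were made from the left hippocampus, 1 per pup, and the authors trimmed the reads, aligned them to mm10 with HISAT2 and GENCODE annotation, and computed TPM with StringTie. No versions are stated. The deposited values are the authors' TPM for 52636 genes in 46 libraries. The authors also deposited DESeq2 comparisons of their own (log2 fold change, p-value, adjusted p-value) in 3 tables, which were not used. One row, Cav2, holds text in a cell and was left out. Female CTL and LB samples 9 carry earlier numbers in the header and were kept as labelled.

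A single limma fit (version 3.58.1, R 4.3.3, variance trend) of log2(TPM + 1) covered 6 groups of rearing by sex. It held the 13244 genes whose mean in any rearing reached 3 TPM. Each contrast averages the male and female differences, with Benjamini-Hochberg adjustment over all tested genes and a threshold of 0.05. Genes under that TPM level were fitted without the filter. Intervals are at 95%.

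Genes and lists were chosen with earlier results of these data known. Per library ranges are given for the sheath genes, the 5 largest and smallest LB changes, the smallest p-values for UPS against LB and genes called in 1 rearing, and for other lists the smallest p-values, of which not all are printed. Alternatives were other pseudocounts, filters, scalings, models and weights, a block of sample numbers, the doubtful pups moved or left out, and each library left out. A GC trend removed, female UPS samples 1 and 2 left out together, and values within each sex without doubtful libraries were added after the data were seen. Gene positions come from GENCODE M21 (GRCm38), in which 99.7% of identifiers were found, and sequences from RefSeq (GRCm38.p6). Python 3.11.15 was used for tables.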

Additional observations from a re-analysis of the deposited data

Results flagged for a closer look

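Within each rearing and sex, the highest or lowest library was compared with the rest by Dixon's ratio, which chance alone passes in about 1 in 20 groups. Over the 34 genes, 14 of 204 groups held such a library, and these came from 6 libraries.

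Male LB sample 5 stood above the other LB males in 5 genes, with Mal at 85.0 TPM, Opalin at 11.7 TPM, Ermn at 17.0 TPM, Car2 at 123 TPM and Galnt6 at 2.55 TPM. Female UPS sample 2 had the highest Anln, at 34.2 TPM, and the lowest Gamt and Car2, at 2.90 TPM and 58.6 TPM. Female UPS sample 6 was far below the other UPS females in Mal, at 22.9 TPM. Female CTL sample 2 was far below the other CTL females in Mag, at 92.4 TPM, and in Gsn, at 33.9 TPM. Male CTL sample 3 was far above the other CTL males in Mbp, at 1335 TPM, and in Ninj2, at 3.42 TPM. Male CTL sample 4 was the one CTL male on the high side of the Qdpr gap, at 129 TPM.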

How the results depend on the processing

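With no filter on low TPM, 7 of all 34 genes were lower in UPS than in CTL, with rearing alone in the model 8, and with the GC trend removed 10, in place of 19. With the sexes as labelled, 0 were lower in LB and 2 in UPS within females, and 0 and 0 within males. The other alternatives gave 20 to 26 lower in LB and 16 to 22 in UPS, and leaving out 1 library gave 20 to 25 and 9 to 23. No alternative called a gene of the list between UPS and LB, higher than CTL, or different between the sexes. The samples of 1 number were not shown to be paired (21 of 102 pairs of libraries had a correlation of deviations over 0.1, median 0.04, against -0.01 for other pairs). These pairs pool all groups, and the share of other pairs over 0.1 is not given. Between females and males of the same rearing and number the median was 0.028 in CTL, 0.062 in LB and 0.070 in UPS. For other female and male pairs it was 0.0022, -0.019 and -0.0066. With the sample number as a replicate block, 21 genes were lower in LB and 21 in UPS, with 345 and 753 of all genes lower and, between UPS and LB, 14 lower and 29 higher.

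Counts over all genes moved more. In LB, 366 were lower and 335 higher. These were 188 higher with no filter, 236 and 201 with rearing alone, 762 and 1020 with library weights, 554 and 569 without female UPS samples 1 and 2, 4 and 0 within females and 0 and 0 within males. In UPS, 731 were lower and 915 higher, against 460 and 597 with no filter, 142 and 190 with rearing alone, 1721 higher with library weights, 410 lower with the GC trend removed, 221 and 241 within females and 0 and 1 within males. Between UPS and LB, 5 were lower and 19 higher in UPS. Lower and higher were 13 and 121 when rescaled without mitochondrial genes, 1 and 2 with rearing alone, 2 and 4 with only the rearings compared, 36 and 121 with library weights, 13 and 40 without female UPS samples 1 and 2, 3 and 2 within females and 0 and 0 within males, with 12 lower after quantile normalisation and 10 with the number 9 pups as males. Leaving out 1 library gave 244 to 565 lower and 186 to 659 higher in LB, 485 to 927 and 619 to 1235 in UPS, and 2 to 19 and 6 to 49 between UPS and LB. The cause of these shifts was not tested.

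Signs turned only for values that had not passed. For LB, Qdpr had -0.043 with rearing alone, -0.0075 with the replicate block, -0.030 with the number 9 pups as males and -0.27 within females, and between -0.038 and 0.099 with 1 library left out. For UPS, Anln had -0.0215 with rearing alone, -0.0212 with the replicate block, -0.099 with library weights, -0.0078 without the number 9 pups, -0.13 within males, -0.040 with the GC trend removed, -0.12 without female UPS samples 1 and 2, and between -0.10 and 0.044 with 1 library left out. Apod had 0.073 within females and Qdpr 0.22 within males. Between UPS and LB, library weights gave 0.068 for Gamt and 0.024 for Car2, leaving out female UPS samples 1 and 2 gave 0.073 and 0.025, and within males they were 0.16 and 0.0041. With 1 library left out Gamt lay between -0.14 and 0.085 and Car2 between -0.053 and 0.032, the upper ends without female UPS sample 2. Within females Tspan2 had -0.076, Pllp -0.037 and Ndrg1 0.063, and within males Evi2a had -0.033. None of these reversed values passed in limma.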
